A study of Mus musculus with 10 samples.

Results

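The 10 antioxidant genes Sod1, Sod2, Cat, Gpx1, Gclc, Gclm, Nqo1, Hmox1, Txnrd1 and Srxn1 were followed in normal mouse liver and in liver tumours driven by c-MYC, with or without an active FOXO1. They were taken by symbol from a deposited table of 16697 genes, where all 10 were found. The rule applies no measured value, but the set was proposed with earlier results of these data known. Polyadenylated or rRNA-depleted RNA was sequenced from 10 libraries. The NL group was wild-type normal liver (n = 4), the c-MYC group was liver tumour tissue after injection of c-MYC with the empty pT3 vector (n = 3), and the c-MYC/FOXO1AAA group was liver tumour tissue after injection of c-MYC with FOXO1AAA, a form of FOXO1 that AKT cannot switch off (n = 3). The comparison asks how active FOXO1 changes gene expression in c-MYC tumours.

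In both tumour groups, plasmids were delivered to hepatocytes by hydrodynamic tail vein injection, and the transgenes were driven by the EF1α promoter. Mice of all groups are labelled WT, so the groups differ by tumour and plasmid. The labels give the strain as C57BL/6 whereas the methods of the study give FVB/N for the same mice, and one description of the vector control adds MCL1. Age and time after injection were not given per library, animals of both sexes were used, and RNA came from mice of each group according to the methods, which count 4, 3 and 3 of them. The labels do not tie a library to an animal, and p-values measure the spread between these libraries. The NL mice are described only as wild type, so effects of the tumour and of the injection cannot be told apart.

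Superoxide dismutases turn superoxide into hydrogen peroxide, and catalase and the glutathione peroxidases remove the peroxide. Glutathione and the thioredoxin system supply the reducing power. The transcription factor NRF2, which KEAP1 holds back until oxidants or electrophiles are present, drives many of these genes through antioxidant response elements, and FOXO factors are known to activate Sod2 and Cat when AKT signalling is low.

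Libraries held 13.124 to 20.548 M reads in the listed genes. Foxo1 itself (chr3:52268336-52353221, GRCm38) stood at 6.69 to 7.87 FPKM (fragments scaled to gene length and library size) in NL, 5.17 to 6.46 FPKM in c-MYC and 70.1 to 95.6 FPKM in c-MYC/FOXO1AAA, which goes with the labels, although reads of the mouse gene and of the transgene were not separated. The 9 hepatocyte markers in the table summed to 81213 to 91053 FPKM in NL, 3310 to 5174 in c-MYC and 879 to 1567 in c-MYC/FOXO1AAA. Endothelial markers summed to 32.7 to 46.8, 15.4 to 23.9 and 32.8 to 46.0 FPKM in the same order, biliary markers to 20.3 to 27.99, 22.3 to 33.2 and 30.9 to 39.3 FPKM, and T, B and neutrophil markers to 2.08 to 6.58, 2.23 to 3.34 and 11.2 to 23.1 FPKM. These sums mix genes that moved apart. Cdh5 had a mean of 4.61 FPKM in NL and 26.0 FPKM in c-MYC/FOXO1AAA. By the 1.5-fold test described below, 1 of 7 endothelial markers was higher there than in NL and 3 lower. Of all genes, 31.2% and 26.6% were. Between the tumour groups 2 of 9 hepatocyte and 2 of 5 biliary markers were higher, and 5 and 1 lower. Of all genes, 15.9% and 12.7% were. Of 3 T, B and neutrophil markers only Cd79a was called. In these bulk samples fewer cells of a type and less RNA per cell cannot be told apart, and the part of hepatocyte content in the changes below was not tested.

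RefSeq gave promoter windows (250 bases before to 50 after a start, GRCm38.p6) for 8 of the 10 genes. The core of the antioxidant response element, TGACNNNGC on either strand, lay in a window of 4 of these 8 genes and in 12.39% of all 32851 windows. The sequences are shown because the set holds both Gclm and Srxn1, which changed in opposite directions between the tumour groups. The core is in capitals with 10 flanking bases, and all 4 cores read on the other strand, as GCNNNGTCA:
Gclm (chr3:122245413-122245441, plus strand): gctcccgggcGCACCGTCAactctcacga
Sod1 (chr16:90220696-90220724, plus strand): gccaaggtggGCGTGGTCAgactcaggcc
Srxn1 (chr2:152105542-152105570, plus strand): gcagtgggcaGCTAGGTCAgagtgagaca
Txnrd1 (chr10:82859104-82859132, plus strand): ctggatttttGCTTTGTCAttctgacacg
The first base of the core was at position -134 in Gclm, -56 in Sod1, 29 in Srxn1 and -92 in Txnrd1, counted from the start of the transcript. A FOXO motif, GTAAACA, was in 3.65% of all windows and the E-box CACGTG in 7.15%. Neither stood in a window of these 8 genes, Sod2 and Cat included. The Sod2 window did not run into the first bases of an annotated transcript, so it may not hold the promoter in use. A match describes the letters in the window only.

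In c-MYC tumours 8 of the 10 genes were lower than in NL and none was higher, by limma's test for a change over 1.5-fold with an adjusted p below 0.05. Among all 14017 genes tested, 23.6% were lower and 24.5% higher. The median log2 fold change was -2.40 over the 10 genes and 0.08 over all genes tested. In c-MYC/FOXO1AAA tumours compared with c-MYC tumours, Cat, Gclm and Sod2 were lower (3 of 10, with 12.7% of all genes lower) and Srxn1 was higher (1 of 10, with 15.9% of all genes higher), and the medians were -0.39 and 0.03. Compared with NL, c-MYC/FOXO1AAA tumours had 8 of 10 genes lower and none higher, where 26.6% of all genes were lower and 31.2% higher, with medians of -2.69 and 0.21. The libraries of both groups did not overlap for 9, 6 and 9 of the 10 genes in these 3 comparisons, in that order, against 73.9%, 63.4% and 80.1% of all genes.

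These counts are on the deposited scale, on which 50.96%, 55.5% and 53.97% of the called genes were higher in the 3 comparisons. With the authors' scaling factors undone, so that values follow the listed reads, 78.7%, 65.2% and 79.8% of calls over all genes were higher. On that scale 6, 3 and 8 of the 10 genes were lower, where 13.6%, 10.3% and 14.8% of all genes were lower, and 1, 1 and 1 were higher, where 50.4%, 19.3% and 58.7% of all genes were higher. Undoing the factors moved the all-gene median by 0.92, 0.21 and 1.12 in log2 units, so falls from NL became smaller in size.

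All 10 genes passed the filter on low values. Nqo1 did so only through its NL libraries, so its fall from NL was favoured by the filter. The counts of genes lower than in NL include Nqo1 on both scales, and its part in them is no evidence of a fall. The comparisons share groups, so their values stand side by side and are not independent.

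**Figure D1:**
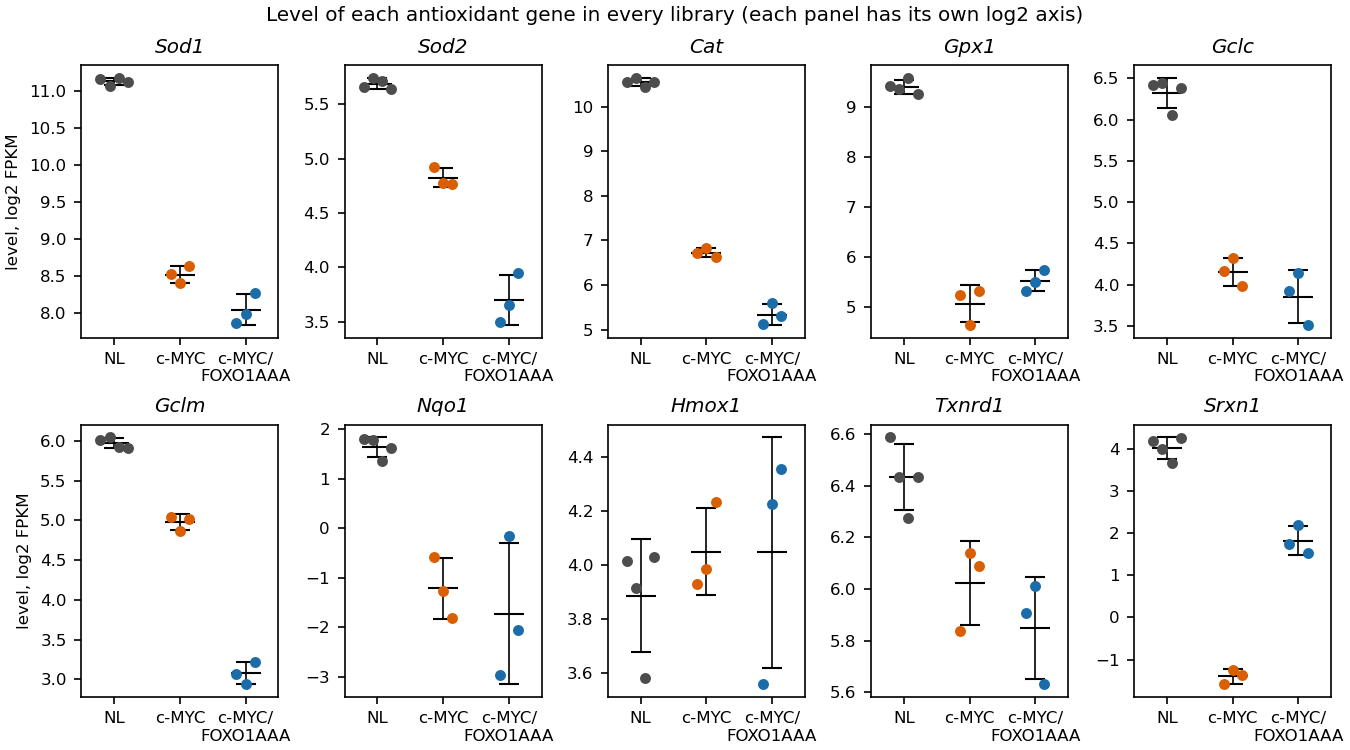
Level of each of the 10 genes on the vertical axis, as log2 FPKM, with 1 point per library and the group mean with its SD over libraries (n = 4 in NL, n = 3 in each tumour group). Srxn1 is lowest in c-MYC and intermediate in c-MYC/FOXO1AAA, Cat, Sod2 and Gclm step down from group to group, and the libraries of the 3 groups overlap for Hmox1.

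The superoxide dismutases were both lower in tumours, and they differed in how far the tumour groups stood apart. Sod1 (chr16:90220754-90226329), the cytosolic copper and zinc enzyme, had levels of 2306, 2155, 2320 and 2244 FPKM in NL, 368, 339 and 396 FPKM in c-MYC, and 234, 253 and 309 FPKM in c-MYC/FOXO1AAA. Every tumour library was far below every NL library, and the tumour groups did not overlap. The log2 fold change was -2.62 (SE 0.11, adjusted p = 4.92e-08 by limma) in c-MYC versus NL, a 6.15-fold fall that was 3.25-fold with the scaling factors undone. Between the tumour groups it was -0.48 (95% CI -0.74 to -0.22), which did not pass the 1.5-fold test (adjusted p = 1 by limma) and passed a test of any change (adjusted p = 0.00538). Even so, Sod1 ranked 209 to 292 of the 16697 genes by FPKM in the tumour libraries, against 53 to 61 in NL.

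Sod2 (chr17:13006846-13040063), the mitochondrial manganese enzyme and a known FOXO target, had levels of 50.5, 53.6, 52.6 and 49.8 FPKM in NL, 30.4, 27.5 and 27.2 FPKM in c-MYC, and 11.3, 12.6 and 15.4 FPKM in c-MYC/FOXO1AAA. No library of any group overlapped with another group. Between the tumour groups Sod2 fell by 1.12 on the log2 scale (SE 0.12, adjusted p = 0.00246 by limma), a 2.18-fold lower level where FOXO1AAA was present. In c-MYC versus NL the log2 fold change was -0.87 (SE 0.11, adjusted p = 0.0312 by limma). That fall depended on the scale. With the authors' scaling factors undone it was 0.05 (adjusted p = 1 by limma), on a scale where the median of all genes stood at 1.002, and the call was lost without any 1 of 4 libraries, NL 2, NL 3, c-MYC 2 or c-MYC 3 (adjusted p 0.0603 to 0.0877 by limma).

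Catalase, the peroxisomal enzyme that splits hydrogen peroxide into water and oxygen, showed the largest fall of the 10 genes in c-MYC/FOXO1AAA versus NL. Cat (chr2:103453849-103485160) had levels of 1496, 1605, 1383 and 1498 FPKM in NL, 105, 114 and 98.5 FPKM in c-MYC, and 34.7, 48.1 and 39.4 FPKM in c-MYC/FOXO1AAA. The 3 groups were separate in every library. Cat was 14.1-fold lower in c-MYC than in NL (log2 fold change -3.82, SE 0.12, adjusted p = 3.56e-09 by limma). It was a further 2.62-fold lower in the c-MYC/FOXO1AAA than in the c-MYC tumours (log2 fold change -1.39, SE 0.13, adjusted p = 0.000252), and 37.0-fold lower than in NL (log2 fold change -5.21, SE 0.12, adjusted p = 4.22e-10). The falls from NL were 7.48-fold in c-MYC and 17.0-fold in c-MYC/FOXO1AAA with the scaling factors undone, both past the test.

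Over the 10 libraries, Scp2 and Agxt2 were among the 3 genes whose levels ran closest to Cat, by the root mean square difference of centred log2 FPKM (0.15 and 0.19). Scp2 encodes a sterol carrier protein with a peroxisomal thiolase form. It had a mean level of 6345 ± 269 FPKM (SD, n = 4) in NL, 509 ± 6.91 FPKM (n = 3) in c-MYC and 177 ± 41.9 FPKM (n = 3) in c-MYC/FOXO1AAA.

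Other peroxisomal enzymes were mostly lower as well. Of 22 tested, 18 fell and 1 rose in c-MYC versus NL (median log2 fold change -2.73), 15 fell and 4 rose in c-MYC/FOXO1AAA versus c-MYC (median -1.55), and 19 fell and none rose in c-MYC/FOXO1AAA versus NL (median -4.49). The medians of all genes tested were 0.08, 0.03 and 0.21. Examples between the tumour groups were Pecr, a peroxisomal enoyl-CoA reductase (log2 fold change -3.44, adjusted p = 1.75e-06 by limma), and Pipox, which oxidises pipecolic acid (-3.83, adjusted p = 8.50e-05). Hao1, a glycolate oxidase that makes peroxide, went the other way (3.56, adjusted p = 0.000167), from 0.240 to 0.324 FPKM in c-MYC up to 1.73 to 7.94 FPKM in c-MYC/FOXO1AAA, still far below the 199 to 225 FPKM of NL. Of these enzymes, 16, 13 and 18 fell and 3, 4 and 0 rose with the scaling factors undone. Of 16 peroxisome biogenesis genes, 10, 4 and 13 fell in the 3 comparisons and 1, 0 and 0 rose, against 4, 1 and 4 that fell and 1, 0 and 1 that rose with the factors undone. Among all genes, 23.6%, 12.7% and 26.6% were lower on the deposited scale, and 13.6%, 10.3% and 14.8% with the factors undone. Higher were 24.5%, 15.9% and 31.2% of all genes, and 50.4%, 19.3% and 58.7% with the factors undone. Pex11a, which takes part in peroxisome division, fell by 3.69 in log2 units in c-MYC versus NL.

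Gpx1 (chr9:108338903-108340343), the selenium-dependent cytosolic glutathione peroxidase, had levels of 678, 655, 766 and 607 FPKM in NL, 38.1, 25.0 and 39.8 FPKM in c-MYC, and 40.2, 45.3 and 53.8 FPKM in c-MYC/FOXO1AAA. Both tumour groups were far below NL. The c-MYC/FOXO1AAA libraries were all above the c-MYC libraries, by a narrow gap. Gpx1 was 20.1-fold lower in c-MYC than in NL (log2 fold change -4.33, SE 0.17, adjusted p = 1.40e-08 by limma), and 10.6-fold lower with the scaling factors undone. Between the tumour groups the log2 fold change was 0.46 (95% CI 0.06 to 0.86), which passed neither the 1.5-fold test (adjusted p = 1 by limma) nor the test of any change (adjusted p = 0.0508).

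Gpx1 is also abundant in red blood cell precursors, and erythroid markers moved with it. All 4 tested erythroid markers were lower than in NL in c-MYC and in c-MYC/FOXO1AAA, where 23.6% and 26.6% of all genes were lower. With the scaling factors undone, 4 were lower in c-MYC and 1 in c-MYC/FOXO1AAA, where 13.6% and 14.8% of all genes were. The list's summed level was 1117 to 2218 FPKM in NL, 131 to 234 FPKM in c-MYC and 215 to 532 FPKM in c-MYC/FOXO1AAA. Over the libraries, Slc16a11 and Gm8189 ran closest to Gpx1 (root mean square differences 0.15 and 0.20). Alas2, which makes heme in erythroid cells and was the third closest gene to Gpx1 over the libraries (root mean square difference 0.24), had a mean of 22.6 ± 3.13 FPKM in NL, 1.09 ± 0.170 FPKM in c-MYC and 1.45 ± 0.267 FPKM in c-MYC/FOXO1AAA (SD, n = 4, 3 and 3). Slc4a1 in NL and Hba-a2 in c-MYC had at most 3 reads in each library. The part of erythroid RNA in the Gpx1 difference was not tested.

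Genes for selenoprotein synthesis, on which Gpx1 and Txnrd1 depend, were also partly lower on the deposited scale. Of 9 tested, 4 fell in c-MYC versus NL, 3 fell in c-MYC/FOXO1AAA versus c-MYC, 5 fell in c-MYC/FOXO1AAA versus NL, and none rose. The shares of all genes that were lower there were 23.6%, 12.7% and 26.6%. With the scaling factors undone the 3 falls between the tumour groups stood, but 4 rose and none fell in c-MYC versus NL, and 3 fell and 4 rose in c-MYC/FOXO1AAA versus NL. These rises are read against 50.4% and 58.7% of all genes that were higher on that scale, and are no result about these genes. Sephs2, which makes the selenium donor, had a mean of 553 ± 34.1 FPKM in NL, 279 ± 15.3 FPKM in c-MYC and 71.3 ± 24.6 FPKM in c-MYC/FOXO1AAA (SD, n = 4, 3 and 3). Selenop, the plasma selenium carrier made by hepatocytes, fell by 2.02 on the log2 scale between the tumour groups (SE 0.15, adjusted p = 1.25e-05 by limma). The part of selenoprotein synthesis genes in the Gpx1 and Txnrd1 levels was not tested.

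**Figure D2:**
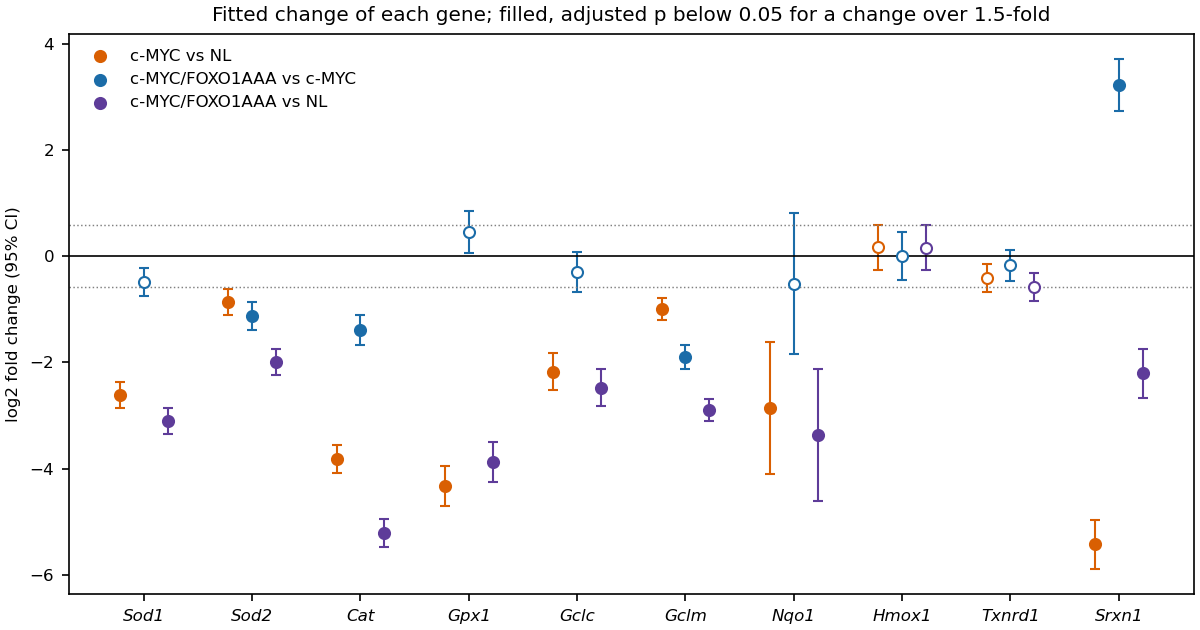
Log2 fold change of each gene on the vertical axis with its 95% confidence interval, for the 3 comparisons by colour, filled where the change over 1.5-fold (dotted lines) had an adjusted p below 0.05. Filled points lie below 0 for 8 genes in each comparison with NL, and between the tumour groups for Cat, Gclm and Sod2 (-1.39, -1.90 and -1.12), with Srxn1 above 0 (3.22). The falls of Sod2 and Gclm in c-MYC versus NL were lost with the scaling factors undone.

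Glutathione is made from glutamate, cysteine and glycine, and its first, rate-limiting step is run by glutamate-cysteine ligase, a dimer of the catalytic subunit GCLC and the modifier subunit GCLM. The genes of both subunits were lower in tumours, in different steps. Gclc (chr9:77754535-77794485) had levels of 85.5, 87.5, 66.6 and 83.5 FPKM in NL, 17.9, 20.0 and 15.8 FPKM in c-MYC, and 15.1, 17.6 and 11.4 FPKM in c-MYC/FOXO1AAA. The tumour groups overlapped with each other and not with NL. Gclc was 4.51-fold lower in c-MYC than in NL (log2 fold change -2.17, SE 0.16, adjusted p = 4.80e-06 by limma), with -0.30 between the tumour groups (95% CI -0.68 to 0.07). The fall from NL was 2.38-fold with the scaling factors undone, still past the test.

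Gclm (chr3:122245557-122270732) had levels of 64.4, 66.3, 60.5 and 60.3 FPKM in NL, 33.1, 29.1 and 32.5 FPKM in c-MYC, and 8.39, 7.69 and 9.34 FPKM in c-MYC/FOXO1AAA. The groups were separate in all libraries. Gclm was 3.73-fold lower in the c-MYC/FOXO1AAA than in the c-MYC tumours (log2 fold change -1.90, SE 0.10, adjusted p = 1.75e-06 by limma), and this call stood on every scale tried. Its fall in c-MYC versus NL (log2 fold change -0.99, SE 0.10, adjusted p = 0.00212 by limma) was -0.08 with the scaling factors undone (adjusted p = 1 by limma).

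The ratio of both subunits within a library does not depend on scaling between libraries. The log2 ratio of Gclm over Gclc FPKM was -0.41, -0.40, -0.14 and -0.47 in NL, 0.89, 0.54 and 1.04 in c-MYC, and -0.85, -1.19 and -0.28 in c-MYC/FOXO1AAA. Modifier exceeded catalytic subunit mRNA per length in the c-MYC libraries and fell below it in all others. The mean log2 ratio differed by 1.18 between c-MYC and NL (p = 0.0571, exact permutation test, two-sided) and by -1.60 between c-MYC/FOXO1AAA and c-MYC (p = 0.10, exact permutation test). These are the smallest p-values that 3 against 4 and 3 against 3 libraries allow, and over the 18 ratio comparisons no adjusted p was below 0.129.

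The ligase is followed by glutathione synthetase, and Gss behaved like neither subunit. It had a mean of 58.4 ± 3.597 FPKM in NL, 58.7 ± 8.07 FPKM in c-MYC and 18.6 ± 2.07 FPKM in c-MYC/FOXO1AAA (SD, n = 4, 3 and 3). Its log2 fold change was -1.65 between the tumour groups (adjusted p = 2.74e-05 by limma), while in c-MYC versus NL its groups overlapped. With the scaling factors undone, Gss was called higher in c-MYC than in NL (log2 fold change 0.92, adjusted p = 0.00994 by limma). The median of all genes stood at 1.002 on that scale, above the value of Gss. Gss was named here after its values were seen.

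Sulfiredoxin, which repairs over-oxidised peroxiredoxins, had the largest fall of the 10 genes in c-MYC versus NL on the deposited scale and was the only one that passed the test as higher in c-MYC/FOXO1AAA versus c-MYC. Srxn1 (chr2:152105516-152111376) had levels of 18.1, 15.9, 12.8 and 19.2 FPKM in NL, 0.333, 0.420 and 0.391 FPKM in c-MYC, and 3.33, 4.58 and 2.89 FPKM in c-MYC/FOXO1AAA. These levels rest on 350 to 561 reads in NL, 15, 20 and 18 reads in c-MYC and 157 to 381 reads in c-MYC/FOXO1AAA. The groups were separate, and the c-MYC/FOXO1AAA libraries lay between the other groups.

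Srxn1 was 43.0-fold lower in c-MYC than in NL (log2 fold change -5.43, SE 0.21, adjusted p = 9.74e-09 by limma) and 9.32-fold higher in the c-MYC/FOXO1AAA than in the c-MYC tumours (log2 fold change 3.22, SE 0.22, adjusted p = 2.83e-06 by limma). Relative to NL it was still 4.61-fold lower in c-MYC/FOXO1AAA (log2 fold change -2.21, SE 0.21, adjusted p = 2.01e-05 by limma). With few reads in c-MYC the size of the fall and of the rise depended on the pseudocount. With 1 FPKM added to each value, the fall from NL was 12.5-fold (log2 fold change -3.65), smaller than those of Gpx1 (-4.29) and Cat (-3.81), and the rise was 1.72 on the log2 scale, all past the test. Without the authors' factors, Srxn1 was 22.7-fold lower in c-MYC than in NL and 2.12-fold lower in c-MYC/FOXO1AAA than in NL. The exact 95% Poisson interval of the lowest c-MYC library was 8.40 to 24.7 reads, which covers counting error only.

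The peroxiredoxin Prdx1, a substrate of sulfiredoxin, had a mean of 490 ± 31.2 FPKM in NL, 314 ± 29.8 FPKM in c-MYC and 151 ± 42.6 FPKM in c-MYC/FOXO1AAA (SD, n = 4, 3 and 3). The log2 ratio of Srxn1 over Prdx1 FPKM was -5.38 to -4.66 in NL, -10.02 to -9.51 in c-MYC and -6.12 to -4.83 in c-MYC/FOXO1AAA. The c-MYC libraries were thus far below both other groups, which overlapped. The mean log2 ratio differed by -0.48 between c-MYC/FOXO1AAA and NL (p = 0.343, exact permutation test, two-sided). The size of the other differences depended on the pseudocount. With 1 FPKM added, -4.78 became -3.00 in c-MYC versus NL, and 4.30 became 2.80 between the tumour groups.

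Among all genes, Gm34934, Gm12473 and Xdh ran closest to Srxn1 (root mean square differences 0.28, 0.31 and 0.33). Xdh, the oxidase of purine breakdown and a source of superoxide and peroxide, had a mean of 261 ± 33.6 FPKM in NL, 8.26 ± 1.74 FPKM in c-MYC and 52.3 ± 5.02 FPKM in c-MYC/FOXO1AAA (SD, n = 4, 3 and 3). It rose by 2.68 on the log2 scale between the tumour groups (adjusted p = 1.58e-06 by limma). By summed level, stellate cell and fibroblast markers also stood highest in c-MYC/FOXO1AAA, at 360 to 455 FPKM. The sums were 12.3 to 40.6 FPKM in c-MYC and 91.8 to 116 FPKM in NL. Of 8 markers, 5 were higher and none lower than in c-MYC, where 15.9% and 12.7% of all genes were. Relative to NL the list was split, with 5 higher and 2 lower, and Lrat was lower (log2 fold change -3.93, adjusted p = 9.30e-05 by limma). The part of these markers in the Srxn1 rise was not tested.

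Txnrd1 and Hmox1 passed the 1.5-fold test in none of the 3 comparisons. Txnrd1 (chr10:82833951-82897712), the cytosolic selenoenzyme that recharges thioredoxin, had levels of 96.2, 86.4, 77.5 and 86.4 FPKM in NL, 57.2, 70.5 and 68.1 FPKM in c-MYC, and 60.1, 64.4 and 49.6 FPKM in c-MYC/FOXO1AAA. Tumour libraries were all below NL, and the tumour groups overlapped. The log2 fold change was -0.41 (95% CI -0.68 to -0.14) in c-MYC versus NL and -0.58 (95% CI -0.85 to -0.31) in c-MYC/FOXO1AAA versus NL. A test of any change passed in both (adjusted p = 0.0102 and 0.00102 by limma), but with the scaling factors undone the values were 0.51 and 0.54.

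By rank within a library, Txnrd1 was at 1426 to 1639 in NL, 1447 to 1789 in c-MYC and 1368 to 1799 in c-MYC/FOXO1AAA. Its ranks overlapped in all groups. The log2 ratio of Txnrd1 over Txn1, the gene for the thioredoxin it reduces, was -1.91 to -1.63 in NL, -2.01 to -1.51 in c-MYC and -2.31 to -1.76 in c-MYC/FOXO1AAA. These ranges overlapped in every comparison, with differences of -0.04, -0.14 and -0.19 (p = 0.80, 0.60 and 0.40, exact permutation test, two-sided).

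Hmox1 (chr8:75093621-75100589), which degrades heme, is induced by NRF2 and repressed by BACH1. It had levels of 16.2, 15.1, 11.96 and 16.3 FPKM in NL, 15.2, 15.8 and 18.8 FPKM in c-MYC, and 11.8, 18.7 and 20.5 FPKM in c-MYC/FOXO1AAA. All groups overlapped. The log2 fold change was 0.16 in c-MYC versus NL (95% CI -0.26 to 0.59), 0.00 between the tumour groups (95% CI -0.45 to 0.45) and 0.16 in c-MYC/FOXO1AAA versus NL (95% CI -0.26 to 0.58).

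With the scaling factors undone, Hmox1 was higher in both comparisons with NL (1.08 and 1.29 on the log2 scale, adjusted p = 0.0175 and 0.00244 by limma). On that scale the median of all genes stood at 1.002 and 1.34, so Hmox1 lay close to the median gene on both scales. Macrophages are a main site of Hmox1 in liver, and 13 Kupffer cell and macrophage markers summed to 333 to 565 FPKM in NL, 460 to 525 FPKM in c-MYC and 223 to 380 FPKM in c-MYC/FOXO1AAA. Of these, 3 were higher and 3 lower in c-MYC than in NL, where 24.5% and 23.6% of all genes were. With the factors undone, 9 were higher and 2 lower, where 50.4% and 13.6% of all genes were. The part of these markers in the Hmox1 level was not tested.

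**Figure D3:**
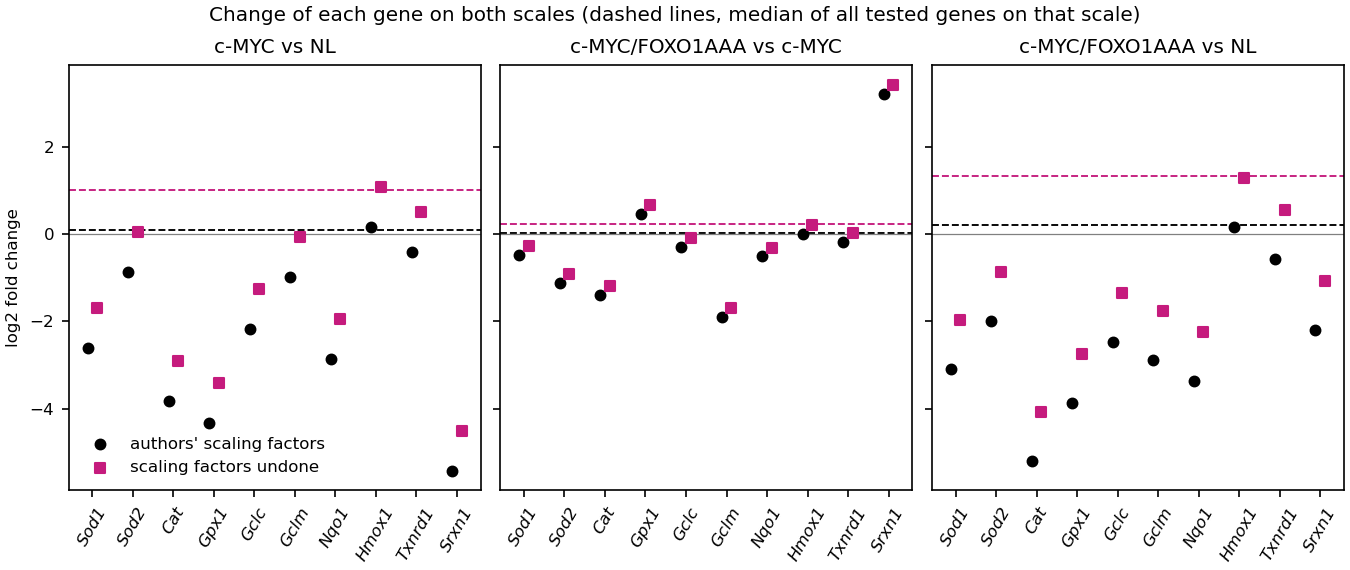
Log2 fold change of each gene on the vertical axis in the 3 comparisons, on the deposited scale (circles) and with the authors' scaling factors undone (squares), with the median of all tested genes on each scale as a dashed line. Undoing the factors lifts the median from 0.08 to 1.002 in c-MYC versus NL and moves Sod2 to 0.05 and Hmox1 to 1.08, while Srxn1, Cat and Gpx1 stay far below 0.

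Nqo1 (chr8:107388225-107403206), a quinone reductase and classical NRF2 target, was low everywhere. It had levels of 3.52, 3.42, 2.58 and 3.09 FPKM in NL (38 to 59 reads), 0.673, 0.418 and 0.287 FPKM in c-MYC (17, 10 and 6 reads), and 0.129, 0.895 and 0.240 FPKM in c-MYC/FOXO1AAA (2, 38 and 5 reads). Each NL library was above each tumour library. The log2 fold change was -2.86 in c-MYC versus NL (SE 0.56, adjusted p = 0.00308 by limma) and -3.37 in c-MYC/FOXO1AAA versus NL (SE 0.56, adjusted p = 0.000643 by limma). These values were -1.51 and -1.58 with 1 FPKM added, -1.94 and -2.25 with the scaling factors undone, and the second was -4.15 without c-MYC/FOXO1AAA replicate 2 and -2.75 without replicate 1, all past the test. As Nqo1 passed the filter only through NL, these falls were favoured in advance and their p-values lend them no support.

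The c-MYC/FOXO1AAA libraries of Nqo1 disagreed. The second had 38 reads (exact 95% Poisson interval 26.9 to 52.2), against 2 (0.242 to 7.22) and 5 (1.62 to 11.7) in the others, and the group mean of 0.421 FPKM became 0.184 FPKM without it. Between the tumour groups the log2 fold change of -0.51 (95% CI -1.84 to 0.82) became 0.10 without c-MYC/FOXO1AAA replicate 1 and -1.30 without replicate 2. A difference in Nqo1 between the tumour groups was not detected, with few reads and with c-MYC/FOXO1AAA libraries that differed beyond counting error.

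Nfe2l2, the gene of NRF2, stood at 20.2 to 28.8 FPKM in NL, 17.96 to 20.2 FPKM in c-MYC and 23.3 to 26.7 FPKM in c-MYC/FOXO1AAA. Keap1 stood at 21.5 to 25.1, 19.8 to 21.97 and 14.3 to 14.9 FPKM in the same order. On the deposited scale neither passed the 1.5-fold test in any comparison. With the scaling factors undone Nfe2l2 did in c-MYC/FOXO1AAA versus NL (log2 fold change 1.07, adjusted p = 0.00270 by limma), where the median of all genes stood at 1.34, and with libraries brought to the same median Keap1 was lower in c-MYC/FOXO1AAA versus NL (-0.80, adjusted p = 0.0329). On the deposited scale a test of any change passed for Nfe2l2 in c-MYC versus NL (log2 fold change -0.45, adjusted p = 0.00780 by limma) and between the tumour groups (0.40, adjusted p = 0.0280). Keap1 in c-MYC/FOXO1AAA lay below both other groups without overlap, with a log2 fold change of -0.66 versus NL.

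Bach1, a repressor at NRF2 sites, was lower in c-MYC than in NL (log2 fold change -1.54, SE 0.15, adjusted p = 0.000137 by limma) and in c-MYC/FOXO1AAA than in NL (-1.04, adjusted p = 0.0120). With the factors undone these values were -0.63 and 0.09, neither past the test. Of 11 tested genes of NRF2 regulation, 3 fell and none rose in c-MYC versus NL. Between the tumour groups 1 rose and 1 fell, and 2 fell in c-MYC/FOXO1AAA versus NL. Over all genes 23.6%, 12.7% and 26.6% were lower and 24.5%, 15.9% and 31.2% higher, so these falls are no result about the list. The pair from the tumour comparison was Mafk, a small MAF partner of NRF2 (1.46, adjusted p = 0.000271), and Btrc, part of a ubiquitin ligase that marks NRF2 (-1.26, adjusted p = 0.00591). With the factors undone, 3, 2 and 6 of the 11 rose and 0, 1 and 0 fell, where 50.4%, 19.3% and 58.7% of all genes were higher, and the second riser between the tumour groups was Mafg, another small MAF gene (1.06, adjusted p = 0.0443). The log2 ratio of Nqo1 over Nfe2l2 was -3.15 to -2.95 in NL, -6.14 to -4.75 in c-MYC and -7.70 to -4.77 in c-MYC/FOXO1AAA, so that NL was separate and the tumour groups overlapped. With 1 FPKM added, its mean difference from NL went from -2.40 to -1.08 in c-MYC and from -3.32 to -1.53 in c-MYC/FOXO1AAA.

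**Figure D4:**
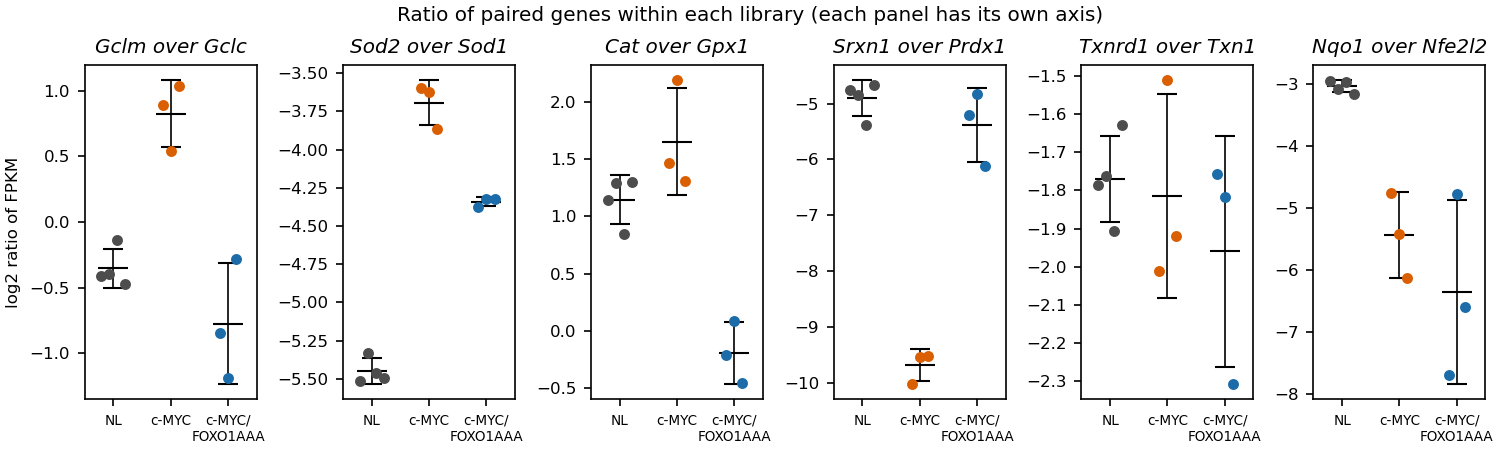
Log2 ratio of FPKM of paired genes within each library on the vertical axis, with 1 point per library and the group mean with its SD (n = 4, 3 and 3). Gclm over Gclc is above 0 in the 3 c-MYC libraries and below 0 in all others, and Srxn1 over Prdx1 runs from -10.02 to -9.51 in c-MYC and from -6.12 to -4.66 elsewhere.

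Sod2 over Sod1 and Cat over Gpx1 gave 2 further ratios of this kind. The log2 ratio of Sod2 over Sod1 FPKM was -5.51 to -5.33 in NL, -3.86 to -3.60 in c-MYC and -4.37 to -4.32 in c-MYC/FOXO1AAA, so the groups were separate. The log2 ratio of Cat over Gpx1 FPKM was 0.85 to 1.30 in NL, 1.31 to 2.19 in c-MYC and -0.45 to 0.08 in c-MYC/FOXO1AAA. Its mean was 1.85 lower in the c-MYC/FOXO1AAA than in the c-MYC tumours (difference -1.85, p = 0.10, exact permutation test, the smallest p this design allows).

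Of 26 other NRF2 targets tested, 14 fell and 3 rose in c-MYC versus NL (median log2 fold change -1.47), 7 fell and 4 rose between the tumour groups (median -0.56), and 18 fell and 3 rose in c-MYC/FOXO1AAA versus NL (median -2.24). All genes had 23.6%, 12.7% and 26.6% lower and 24.5%, 15.9% and 31.2% higher in these comparisons. The counts were 13, 6 and 13 lower and 8, 4 and 7 higher with the factors undone. On that scale 13.6%, 10.3% and 14.8% of all genes were lower and 50.4%, 19.3% and 58.7% higher. Me1, malic enzyme and a source of NADPH, had the largest fall in c-MYC versus NL (log2 fold change -7.15, SE 0.31, adjusted p = 2.36e-08 by limma) and rose by 2.30 between the tumour groups (adjusted p = 0.00102). Its levels were 62.4 to 116 FPKM in NL, 0.367 to 0.780 FPKM in c-MYC and 1.90 to 3.61 FPKM in c-MYC/FOXO1AAA.

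Ephx1, microsomal epoxide hydrolase, had the same shape, at 206 to 236 FPKM in NL, 4.36 to 7.60 FPKM in c-MYC and 22.4 to 39.3 FPKM in c-MYC/FOXO1AAA (log2 fold change 2.38 between the tumour groups, adjusted p = 8.24e-05 by limma). Abcc2, which exports glutathione conjugates into bile, fell in both steps (-3.22 and -2.33 on the log2 scale). G6pdx, which starts the pentose phosphate pathway, and Pgd were among the 3 that rose in c-MYC versus NL. G6pdx stood at 3.03 to 4.99 FPKM in NL, 30.7 to 36.6 FPKM in c-MYC and 12.4 to 16.6 FPKM in c-MYC/FOXO1AAA. G6pdx and Pgd were named after their values were seen.

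Of 31 other peroxide and thiol enzymes tested, 4 of which are also in the list of NRF2 targets, 9 fell and 3 rose in c-MYC versus NL (median log2 fold change -0.50). Between the tumour groups 6 rose and 6 fell (median -0.28), shares close to the 15.9% and 12.7% of all genes, and in c-MYC/FOXO1AAA versus NL 14 fell and 7 rose (median -0.50). In c-MYC versus NL 23.6% of all genes were lower and 24.5% higher, and in c-MYC/FOXO1AAA versus NL 26.6% and 31.2%. With the scaling factors undone 5, 3 and 8 fell and 11, 6 and 12 rose in these comparisons, where 50.4%, 19.3% and 58.7% of all genes were higher. Gpx3, the secreted glutathione peroxidase, went against Gpx1 in the comparison of c-MYC with NL. It stood at 1.80 to 6.66 FPKM in NL, 23.7 to 50.5 FPKM in c-MYC and 336 to 474 FPKM in c-MYC/FOXO1AAA, where its level was above that of Gpx1 in every library.

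The log2 fold change of Gpx3 was 2.97 in c-MYC versus NL (adjusted p = 0.000358 by limma) and 3.63 between the tumour groups (adjusted p = 0.000196). Methionine sulfoxide reductases, which repair oxidised methionine, split between the tumour groups. Msrb2 and Msrb3 rose (3.25 and 3.58 on the log2 scale, adjusted p = 1.29e-05 and 2.92e-06 by limma), while Msrb1, a selenoprotein, had -0.10 and Msra -0.78, neither past the test. Glrx, glutaredoxin, fell by 2.43 (adjusted p = 7.77e-06 by limma), and Gpx8 rose by 3.20 (adjusted p = 0.00349 by limma). Sesn1 and Sesn3, named after their values were seen, had mean levels of 9.60 and 2.73 FPKM in c-MYC. In c-MYC/FOXO1AAA these were 49.3 and 15.8 FPKM. Over the whole list, 6 rose and 6 fell between the tumour groups.

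**Figure D5:**
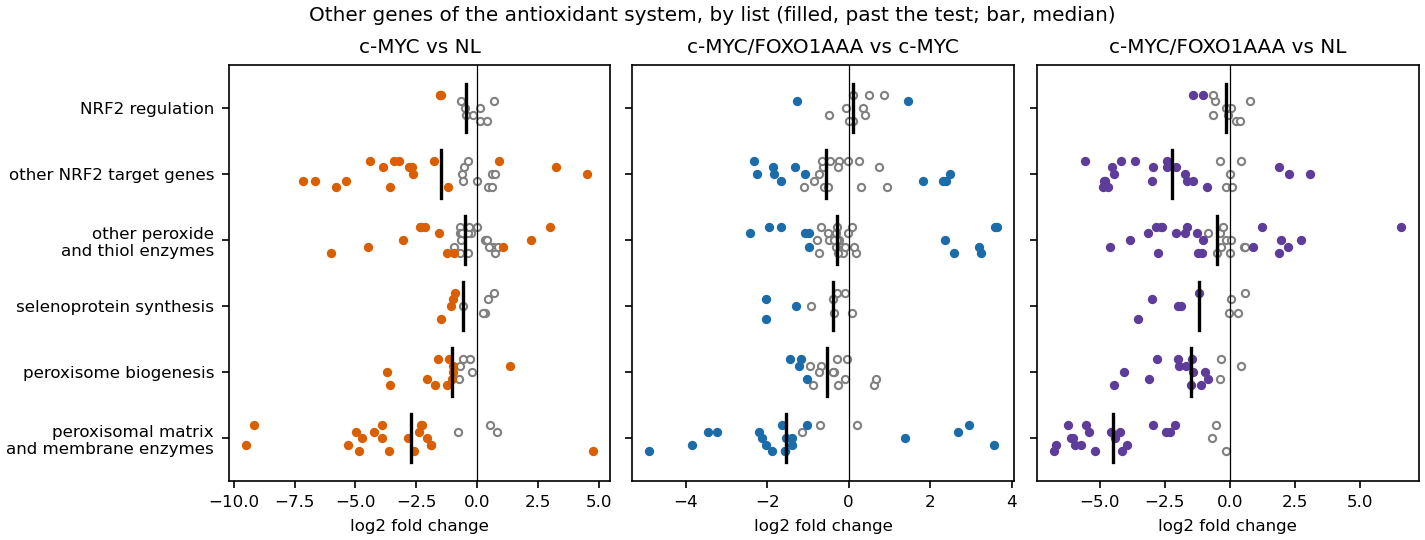
Log2 fold change of the other genes of the antioxidant system on the horizontal axis, by list and comparison, with 1 point per gene, filled where the gene passed the 1.5-fold test, and a bar at the list's median, all on the deposited scale. The medians of the peroxisomal enzymes are -2.73, -1.55 and -4.49, and those of the other NRF2 targets are -1.47, -0.56 and -2.24.

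Together the 10 genes summed to 4668 to 4815 FPKM in NL, 641 to 698 FPKM in c-MYC and 419 to 511 FPKM in c-MYC/FOXO1AAA, in which the groups were separate. As a share of the listed reads, which carries no scaling factor, they took 0.458 to 0.495% in NL, 0.139 to 0.145% in c-MYC and 0.0896 to 0.0995% in c-MYC/FOXO1AAA. Sod1, Cat and Gpx1 made up 93.1 to 94.0% of the summed FPKM in NL, 74.5 to 76.7% in c-MYC and 73.2 to 78.6% in c-MYC/FOXO1AAA.

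None of the 10 genes was among the 3 nearest genes of another member. The closest pairs were Sod1 with Gclc, Sod2 with Gclm and Hmox1 with Txnrd1, with root mean square differences of 0.39, 0.40 and 0.42 in centred log2 FPKM over the 10 libraries. Hmox1 and Cat were farthest apart, at 2.36.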

How the data were processed

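The table held log2 FPKM as deposited by the authors, who counted reads by Ensembl gene and worked in R. The aligner and counter, and how reads shared between near-identical copies were treated, were not given in the sources used here. The submitters' processing notes name FastQC 0.11.7 and GRCm38. Of 17069 rows, 372 without symbol or values were left out. The values fit a log scale with a prior count of 2, scaled per library. Whole reads and gene lengths were recovered from it for 99.994% of genes (within 0.02 reads), and 97.72% of the lengths equalled an annotated transcript. FPKM printed here are the powers of 2 of the deposited values, prior included. The authors' scaling factors (0.649 to 0.684 in NL, 1.26 to 1.29 in c-MYC, 1.45 to 1.50 in c-MYC/FOXO1AAA) multiply library sizes, so they raise NL values against tumour values.

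All 10 libraries entered 1 limma 3.58.1 fit (R 4.3.3) with group as the only term, a trended robust prior and treat at 1.5-fold. Adjusted p-values are Benjamini-Hochberg over the 14017 genes with at least 1 FPKM in at least 3 libraries. Adjusted p-values named as tests of any change are from the same fit without the fold threshold. The code was tested on simulated data. Ratios within a library were compared by exact permutation tests, two-sided. Members, taken by symbol with no threshold on values, and lists were chosen with earlier results of these data known. Named besides the members were Nfe2l2, Keap1, Bach1, the FOXO factors, up to 4 called genes with the largest change per list and comparison, ratio partners and nearest neighbours. Some genes that this rule takes are not reported here. Gene positions are from GENCODE M21 on GRCm38, and promoter windows are from RefSeq. Alternatives varied scaling, filter, pseudocount, fold threshold, prior, block and libraries.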

Additional observations from a re-analysis of the deposited data

Results flagged for a closer look

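In NL, the third library stood apart for Gclc, the catalytic subunit of glutamate-cysteine ligase. It had 66.6 FPKM against 83.5 to 87.5 FPKM in the other 3 libraries, and its gap to the nearest of them took a share of 0.831 of the group's range, just above Dixon's critical value for 4 samples. Such a limit is passed by chance in about 1 of 20 groups, and both ends of the NL range were examined for each of the 10 genes. Gclc was lower in both tumour groups than in this library too, and its call in c-MYC versus NL was kept without it.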

How the results depend on the processing

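The counts of higher and lower genes among the 10 were recomputed under 23 alternatives. With FPKM brought to the same total, or with the authors' scaling factors undone (added after these factors were seen), 1 gene, Hmox1, was higher instead of 0 in c-MYC versus NL and in c-MYC/FOXO1AAA versus NL. These scalings shifted the median over all genes, in log2 units, by 0.93 and 0.92 in c-MYC versus NL, 0.17 and 0.21 between the tumour groups, and 1.10 and 1.12 in c-MYC/FOXO1AAA versus NL. These scalings shift all genes of a library alike, so they cannot change the distance of the 10 genes from the median of all genes. That distance, between medians, was -2.48, -0.42 and -2.90 on the deposited scale and, by construction, on these scales. It was -2.03, -0.16 and -2.49 after quantile normalization, which can change it. Signs turned under the first 2 scalings for Sod2 in c-MYC versus NL (0.0615 and 0.0531) and for Txnrd1 in c-MYC versus NL (0.52 and 0.51) and c-MYC/FOXO1AAA versus NL (0.52 and 0.54). Between the tumour groups Hmox1 became 0.17 and 0.20, and Txnrd1 0.0330 with the factors undone. After quantile normalization these were 0.0783 and 0.0537. Without c-MYC replicate 3 or c-MYC/FOXO1AAA replicate 1, Hmox1 became 0.09 and 0.24, and without each replicate in turn the value of Nqo1 between the tumour groups ran from -1.30 to 0.10. None of these reversed values was past the test. Besides losses given beside the genes, Sod2 and Gclm in c-MYC versus NL were not past the test after quantile normalization (adjusted p = 0.398 and 0.117 by limma) or at a 2-fold threshold, and neither was Sod2 between the tumour groups at that threshold (adjusted p = 0.590). Same-numbered libraries did not deviate together (9 pairs, r from -0.04 to 0.03), so the numbers do not pair the samples. With a replicate block, 7 rather than 8 genes were lower in c-MYC versus NL (Sod2 -0.88, adjusted p = 0.0630 by limma), and the other counts were 3 lower and 1 higher between the tumour groups and 8 lower in c-MYC/FOXO1AAA versus NL. With 3 or 4 libraries per group, few reads limit chiefly Nqo1, whose c-MYC/FOXO1AAA libraries also disagreed, and Srxn1 in c-MYC.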
